A study of Mus musculus with 36 samples.

Results

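The genes described here encode the working parts of the lysosome in mouse hippocampus: 36 named genes, matched by symbol to the deposited table of 37991 genes. They comprise 12 glycan-degrading hydrolases, 8 lipid hydrolases or lipid transfer and activator proteins, 3 genes of peptide and thioester hydrolysis and the granulin precursor, 7 membrane proteins, 5 proton pump genes and the transcription factor gene Tfeb. Of the 36, 35 had enough reads to be tested, among 14457 genes tested in all, and Atp6v0d2 did not.

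Lysosomes are acidic compartments in which soluble hydrolases break down glycans, lipids, proteins and nucleic acids delivered by endocytosis, phagocytosis and autophagy. The acid is supplied by the V-ATPase, a proton pump made of a cytosolic V1 part that hydrolyses ATP and a V0 part that carries protons through the membrane, and heavily glycosylated membrane proteins such as LAMP1 and LAMP2 line the compartment. Loss of single hydrolases causes storage disorders, many of which affect neurons. The transcription factor TFEB raises many lysosomal genes by binding an E-box-like sequence near their start sites. In brain, microglia are the resident phagocytes, and Cd68 and Laptm5 are lysosomal genes mainly of that lineage.

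RNA came from the hippocampus of adult female mice, given as 3 months old at both times. Mice of the genotype labelled CKp25 carry transgenes that switch on p25, an activating fragment of the Cdk5 regulator p35; in the CK-p25 line expression is driven in forebrain neurons through the Camk2a promoter, and neurons are lost afterwards. Control littermates are labelled CK, and the labels do not say which transgene they carry. Tissue was taken 2 or 6 weeks after p25 was induced, which gave 4 groups of 3 libraries: CKp25 at 2 weeks, CK at 2 weeks, CKp25 at 6 weeks and CK at 6 weeks. The labels do not say that the 3 libraries of a group came from separate animals, and the p-values therefore speak only of how far these libraries spread, a spread that may be technical.

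The 12 libraries held 5029996 to 6450140 reads counted in genes. Among the 2-week libraries, CKp25_2wk_4518 and CK_2wk_4520 differed from the rest: 46.9 and 44.9% of their reads fell outside annotated genes, where the remaining 4 had 38.3 to 39.7%. Multiply aligned reads made up 6.81 and 7.15% of these 2 libraries, and 12.2 to 14.3% of the remaining 4. The share of multiply aligned reads at 6 weeks was 11.5 to 13.9% in CKp25 libraries and 6.86 to 9.52% in CK libraries, which do not overlap. Reads outside annotated genes made up 38.1 to 40.2% of each 6-week CKp25 library and 41.6 to 46.1% of each 6-week CK library, again without overlap. The share outside genes was not used as a covariate, and its part in the 6-week calls was not tested. Libraries are listed below in a fixed order within each group, which is CKp25_2wk_4518, CKp25_2wk_4890 and CKp25_2wk_4894, then CK_2wk_4520, CK_2wk_4891 and CK_2wk_4893, then CKp25_6wk_3937, CKp25_6wk_3940 and CKp25_6wk_4008, and then CK_6wk_3936, CK_6wk_3938 and CK_6wk_4009. Levels are CPM, read counts divided by the library size after scaling by trimmed mean of M-values. Means are given ± SD of 3 libraries, and fold changes ± standard error. Levels depend on transcript length, so they are compared between libraries and not between genes. A gene is called higher or lower where its Benjamini-Hochberg adjusted p from edgeR's quasi-likelihood test, taken over all genes tested, was under 0.05.

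Most lysosomal genes that changed were higher in CKp25 than in CK hippocampus, and the 2 that were lower both encode proton pump subunits. At 2 weeks 15 of the 35 tested genes were called higher and 2 lower, against 11.6% of all genes tested called higher and 7.99% lower. At 6 weeks 23 were called higher and 2 lower, against 18.1% and 15.2% of all genes (33.3% in either direction, and 19.6% at 2 weeks). The median log2 fold change of the 35 genes, CKp25 over CK, was 0.27 at 2 weeks and 0.60 at 6 weeks, beside -0.01 and 0.00 over all genes tested. In 18 of the 35 genes at 2 weeks and 24 at 6 weeks every CKp25 library lay above every CK library, as did 18.4% and 23.6% of all genes. The reverse held for 3 of the 35 at each time, against 17.8% and 21.6% of all genes.

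**Figure D1:**
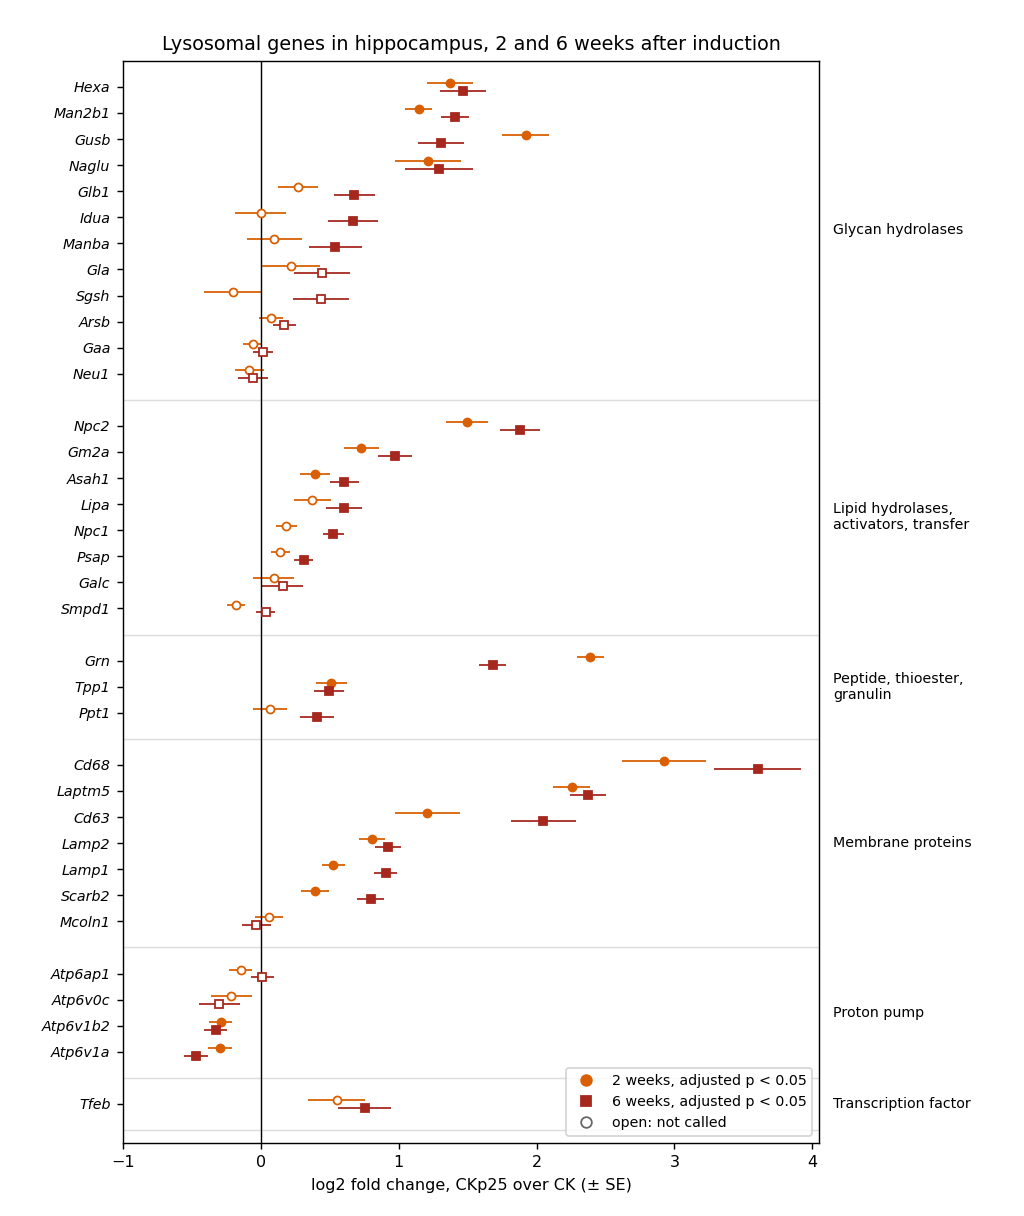
Log2 fold change of the 35 tested lysosomal genes in CKp25 over CK hippocampus at 2 weeks (circles) and 6 weeks (squares), with standard errors, grouped by role; filled symbols passed an adjusted p of 0.05. Cd68 reached 3.60 at 6 weeks, while the 4 proton pump genes lay between -0.47 and 0.01 at both times.

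The calls at the 2 times nested. All 17 genes called at 2 weeks were called in the same direction at 6 weeks, 15 of them higher and 2 lower. Another 8 genes were called higher at 6 weeks and not at 2 weeks, namely Glb1, Manba, Idua, Lipa, Psap, Npc1, Ppt1 and Tfeb. The remaining 10 tested genes, Gaa, Gla, Neu1, Arsb, Sgsh, Smpd1, Galc, Mcoln1, Atp6v0c and Atp6ap1, were called at neither time, with log2 fold changes from -0.30 to 0.44. A call at 6 weeks alone is not a difference between times, which is tested separately below. Leaving out 1 library changed single calls: at 2 weeks Npc1 was called without CKp25_2wk_4894 (log2 fold change 0.26), Tfeb without CK_2wk_4893 (0.77) and Lipa without CKp25_6wk_3940 (0.38), and at 6 weeks Gla was called without CK_6wk_3936 (0.66). Atp6v0c was called lower at 6 weeks under several alternatives, which are given with its values.

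The cell type markers of the same libraries moved as well. All 12 microglia markers were called higher at both times, none was without reads, and their summed level was 757 to 979 CPM in CKp25 and 213 to 239 CPM in CK at 2 weeks and 915 to 1167 CPM in CKp25 and 208 to 237 CPM in CK at 6 weeks. Of 10 neuron markers, 7 were called lower at 2 weeks and 8 at 6 weeks, and their sum was 5585 to 6247 CPM in CKp25 and 7586 to 7841 CPM in CK at 2 weeks and 4596 to 5741 CPM in CKp25 and 7175 to 7964 CPM in CK at 6 weeks. Astrocyte markers summed to 7788 to 8102 CPM in CKp25 and 5785 to 6214 CPM in CK at 2 weeks and 10509 to 13091 CPM in CKp25 and 5902 to 6455 CPM in CK at 6 weeks, with 5 and then all 9 called higher. Of 9 oligodendrocyte markers, 1 was called higher at 2 weeks and 7 at 6 weeks, and none of 8 endothelial and pericyte markers at 2 weeks and 7 at 6 weeks. Markers of border macrophages and blood leukocytes summed to 8.50 to 13.7 CPM in CKp25 and 5.28 to 13.2 CPM in CK at 2 weeks and 15.8 to 33.8 CPM in CKp25 and 5.26 to 9.15 CPM in CK at 6 weeks, and of the 3 with enough reads to be tested 0 were called at 2 weeks, with 0 at an unadjusted edgeR p under 0.05, and all 3 were called higher at 6 weeks, with a median log2 fold change of 1.77. Choroid plexus markers, whose tissue borders the hippocampus, differed widely within every group and summed to 33.4 to 1269 CPM in CKp25 and 24.2 to 1042 CPM in CK at 2 weeks and 24.2 to 2249.5 CPM in CKp25 and 43.9 to 2613 CPM in CK at 6 weeks. None of these 10 was called by edgeR at either time, and 0 had an unadjusted p under 0.05. With the mean choroid plexus marker level as a covariate, the calls of the 35 genes between genotypes and between times were the same. In whole tissue, fewer cells of a type and less RNA per cell cannot be told apart, nor can more cells and more RNA per cell. The part of these marker shifts in the lysosomal results was not tested.

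**Figure D2:**
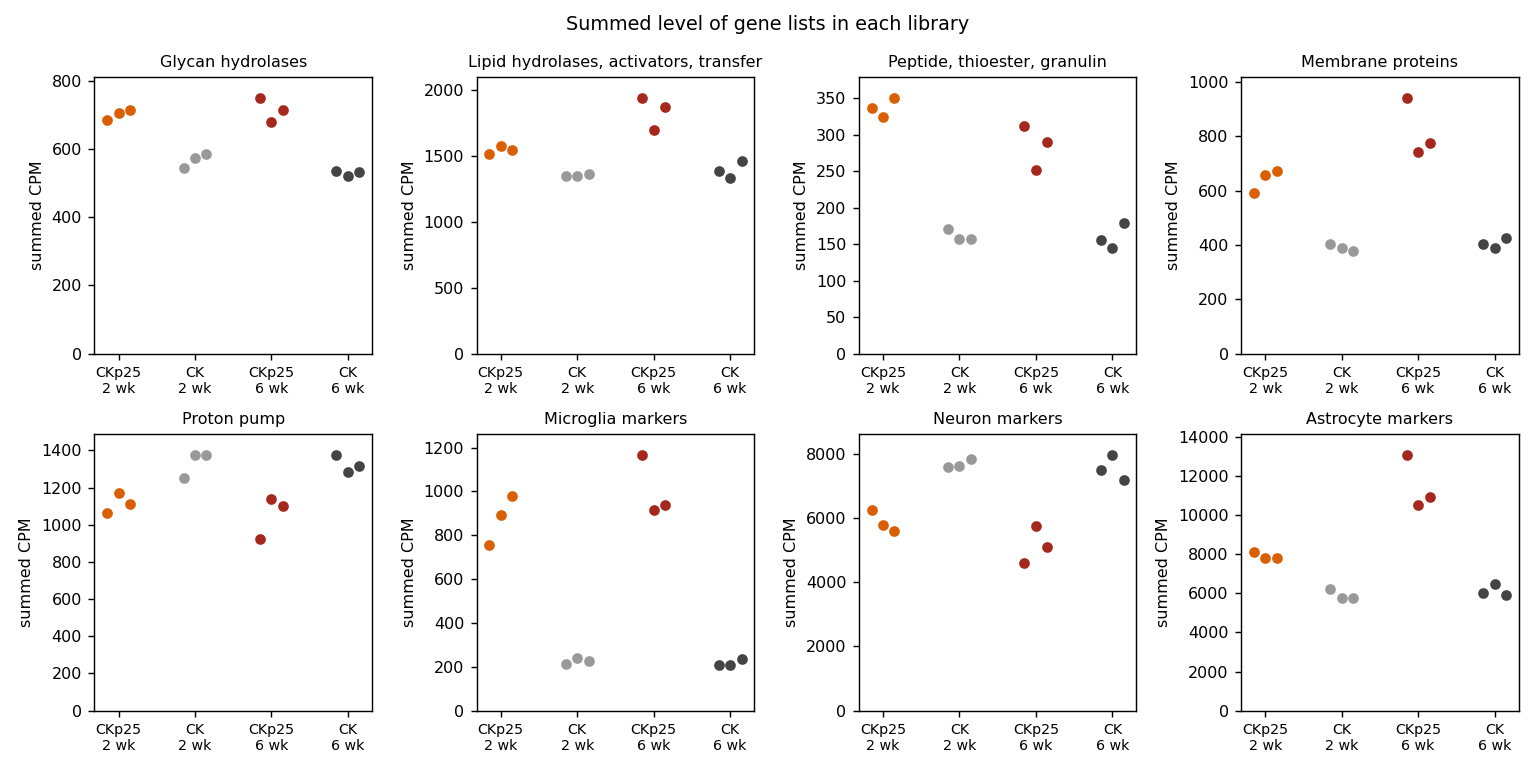
Summed CPM of 5 groups of lysosomal genes and of microglia, neuron and astrocyte markers in each of 12 libraries (points), by group. Every lysosomal group other than the proton pump genes lies higher in CKp25 at both times without overlap, as do microglia and astrocyte markers. Proton pump genes and neuron markers lie lower.

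Promoter sequence was read for the 32 genes with an entry in the RefSeq GRCm38.p6 table used here, which holds 250 bases before to 50 after each start site. The names without an entry are Npc1, Asah1, Atp6v0d2 and Atp6v1b2. The palindromic E-box CACGTG, which TFEB and many other factors bind, was in 8 of the 32 promoters (25%) and in 8.09% of 27025 genes with a listed promoter. The longer form TCACGTG, searched on both strands, was in the same 8 promoters and in 4.29% of all genes, and GTCACGTG was in 6 of them (18.8%) against 2.55%. The full CLEAR palindrome, known as the preferred TFEB site, was in 0 of the 32 and in 0.37% of all genes. All these forms contain the E-box, so the counts overlap. The 8 promoters held 13 E-boxes, at 15 to 227 bases before the start site. They are shown because they are the sequence through which TFEB is known to reach lysosomal genes, each with 20 bases on either side, on the strand of the gene, with the E-boxes in capitals.
Lamp1 (chr8:13159080-13159171, plus strand): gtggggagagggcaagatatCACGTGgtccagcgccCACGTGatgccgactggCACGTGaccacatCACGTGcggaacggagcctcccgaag
Mcoln1 (chr8:3500428-3500499, plus strand): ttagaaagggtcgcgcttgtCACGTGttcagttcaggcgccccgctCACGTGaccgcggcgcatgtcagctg
Gla (chrX:134601174-134601252, minus strand): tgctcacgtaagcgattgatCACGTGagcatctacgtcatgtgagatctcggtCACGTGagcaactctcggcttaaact
Gaa (chr11:119267803-119267848, plus strand): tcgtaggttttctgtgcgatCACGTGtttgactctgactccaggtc
Glb1 (chr9:114401010-114401055, plus strand): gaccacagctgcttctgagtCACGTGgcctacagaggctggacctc
Naglu (chr11:101070001-101070046, plus strand): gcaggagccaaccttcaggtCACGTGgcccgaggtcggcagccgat
Sgsh (chr11:119355514-119355559, minus strand): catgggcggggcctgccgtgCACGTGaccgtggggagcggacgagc
Atp6v1a (chr16:44139365-44139410, minus strand): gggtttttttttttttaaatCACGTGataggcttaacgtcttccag
Lamp1 held 4 E-boxes in 92 bases, Gla and Mcoln1 held 2 each and the other 5 genes held 1 each. Of these 8 genes, 2 were called higher and 1 lower at 2 weeks and 3 higher and 1 lower at 6 weeks, with a median log2 fold change of 0.14 at 2 weeks and 0.44 at 6 weeks. Of the 24 genes whose promoter held none, 12 were called higher at 2 weeks and 18 at 6 weeks, none lower, with medians of 0.45 and 0.71. Over all genes tested, 11.6% were called higher and 7.99% lower at 2 weeks, and 18.1% and 15.2% at 6 weeks. The difference between the 8 and the 24 genes was not tested. The core motif of PU.1, a myeloid transcription factor, was searched as GAGGAAG on both strands and was in 7 of the 32 promoters (21.9%), those of Gla, Gusb, Lipa, Man2b1, Laptm5, Cd63 and Gm2a, against 15.4% of all genes. A match describes letters in this window and shows no binding, and a missing match says only that these letters are not in it.

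The counts by class, here and below, stand against 11.6% of all genes tested called higher and 7.99% lower at 2 weeks, and 18.1% and 15.2% at 6 weeks. Among the 12 glycan-degrading hydrolases, 4 were called higher at 2 weeks and 7 at 6 weeks, and none lower, with median log2 fold changes of 0.16 and 0.61. Their summed level was 685 to 716 CPM in CKp25 and 546 to 587 CPM in CK at 2 weeks and 680.0 to 751 CPM in CKp25 and 520.4 to 536 CPM in CK at 6 weeks, with no overlap. The 4 called at both times were Gusb, Hexa, Man2b1 and Naglu.

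Gusb (ENSMUSG00000025534) encodes beta-glucuronidase, which cuts glucuronic acid from glycosaminoglycans. At 2 weeks Gusb had 25.7, 30.2 and 33.7 CPM in the CKp25 libraries, against 8.22, 7.77 and 7.52 CPM in the CK libraries. At 6 weeks Gusb had 29.4, 19.6 and 20.6 CPM in the CKp25 libraries, against 9.76, 8.70 and 9.43 CPM in the CK libraries. The lowest CKp25 library was above the highest CK library at both times, and CKp25_6wk_3937 lay well above the other 6-week CKp25 libraries. For Gusb the log2 fold change was 1.92 ± 0.17 at 2 weeks (edgeR adjusted p = 2.14e-07) and 1.31 ± 0.17 at 6 weeks (edgeR adjusted p = 1.74e-05). Hexa (ENSMUSG00000025232), the alpha subunit of beta-hexosaminidase, which removes a sugar from GM2 ganglioside, had 66.2, 92.5 and 105 CPM in the CKp25 libraries, against 31.4, 31.9 and 38.4 CPM in the CK libraries at 2 weeks. At 6 weeks Hexa had 119.8, 82.9 and 88.2 CPM in the CKp25 libraries, against 39.7, 31.8 and 33.5 CPM in the CK libraries. CKp25_2wk_4518 was the lowest and CKp25_6wk_3937 the highest CKp25 library of their groups, and neither group touched CK. For Hexa the log2 fold change was 1.38 ± 0.17 at 2 weeks (edgeR adjusted p = 1.08e-05) and 1.47 ± 0.17 at 6 weeks (edgeR adjusted p = 4.67e-06).

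Man2b1 (ENSMUSG00000005142), the lysosomal alpha-mannosidase of glycoprotein breakdown, had the CKp25 libraries with the narrowest relative spread of the 4. Its 2-week levels were 104, 95.3 and 102 CPM in the CKp25 libraries, against 38.9, 48.5 and 49.0 CPM in the CK libraries, and its 6-week levels were 106, 94.5 and 106 CPM in the CKp25 libraries, against 40.3, 41.9 and 33.7 CPM in the CK libraries. The CKp25 libraries of both times lay close together and far above CK. For Man2b1 the log2 fold change was 1.15 ± 0.098 at 2 weeks (edgeR adjusted p = 1.68e-07) and 1.41 ± 0.10 at 6 weeks (edgeR adjusted p = 2.67e-08). Naglu (ENSMUSG00000001751), an N-acetylglucosaminidase that degrades heparan sulfate and whose promoter holds an E-box, was sparsely counted. It reached 15.7, 14.5 and 13.9 CPM in the CKp25 libraries, against 6.37, 4.71 and 7.93 CPM in the CK libraries at 2 weeks, and 15.4, 12.6 and 11.1 CPM in the CKp25 libraries, against 5.09, 3.03 and 7.51 CPM in the CK libraries at 6 weeks. The groups did not overlap, although the CK libraries differed among themselves by more than the CKp25 libraries did in relative terms. For Naglu the log2 fold change was 1.21 ± 0.24 at 2 weeks (edgeR adjusted p = 0.00138) and 1.29 ± 0.25 at 6 weeks (edgeR adjusted p = 0.000696).

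Of the other 8 glycan hydrolases, Glb1 (beta-galactosidase), Idua (alpha-iduronidase, for heparan and dermatan sulfate) and Manba (beta-mannosidase) were called higher at 6 weeks. For Glb1 the log2 fold change at 6 weeks was 0.68 ± 0.15 (edgeR adjusted p = 0.0021). For Idua the log2 fold change at 6 weeks was 0.67 ± 0.18 (edgeR adjusted p = 0.00936). Without CK_6wk_3936 the Idua change was 0.46 and missed the threshold (edgeR adjusted p = 0.0535). For Manba the log2 fold change at 6 weeks was 0.54 ± 0.19 (edgeR adjusted p = 0.037). The Manba call was lost when CKp25_6wk_3937, CKp25_6wk_3940, CKp25_6wk_4008, CK_6wk_3936 or CK_6wk_3938 was left out, with log2 fold changes of 0.37 to 0.55 and edgeR adjusted p up to 0.176. The genes called at neither time include Gaa, the acid alpha-glucosidase of glycogen breakdown, which averaged 286 ± 7.84 CPM in CKp25 and 298 ± 13.0 CPM in CK at 2 weeks and 279 ± 16.4 CPM in CKp25 and 275 ± 10.4 CPM in CK at 6 weeks. Neu1, the lysosomal sialidase, averaged 38.4 ± 1.42 CPM in CKp25 and 40.8 ± 6.98 CPM in CK at 2 weeks and 39.8 ± 1.90 CPM in CKp25 and 41.4 ± 0.981 CPM in CK at 6 weeks. For both genes the groups overlapped at each time. Gla (alpha-galactosidase A), Sgsh (heparan sulfamidase) and Arsb (arylsulfatase B) complete the class, with log2 fold changes of -0.20 to 0.22 at 2 weeks and 0.17 to 0.44 at 6 weeks.

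**Figure D3:**
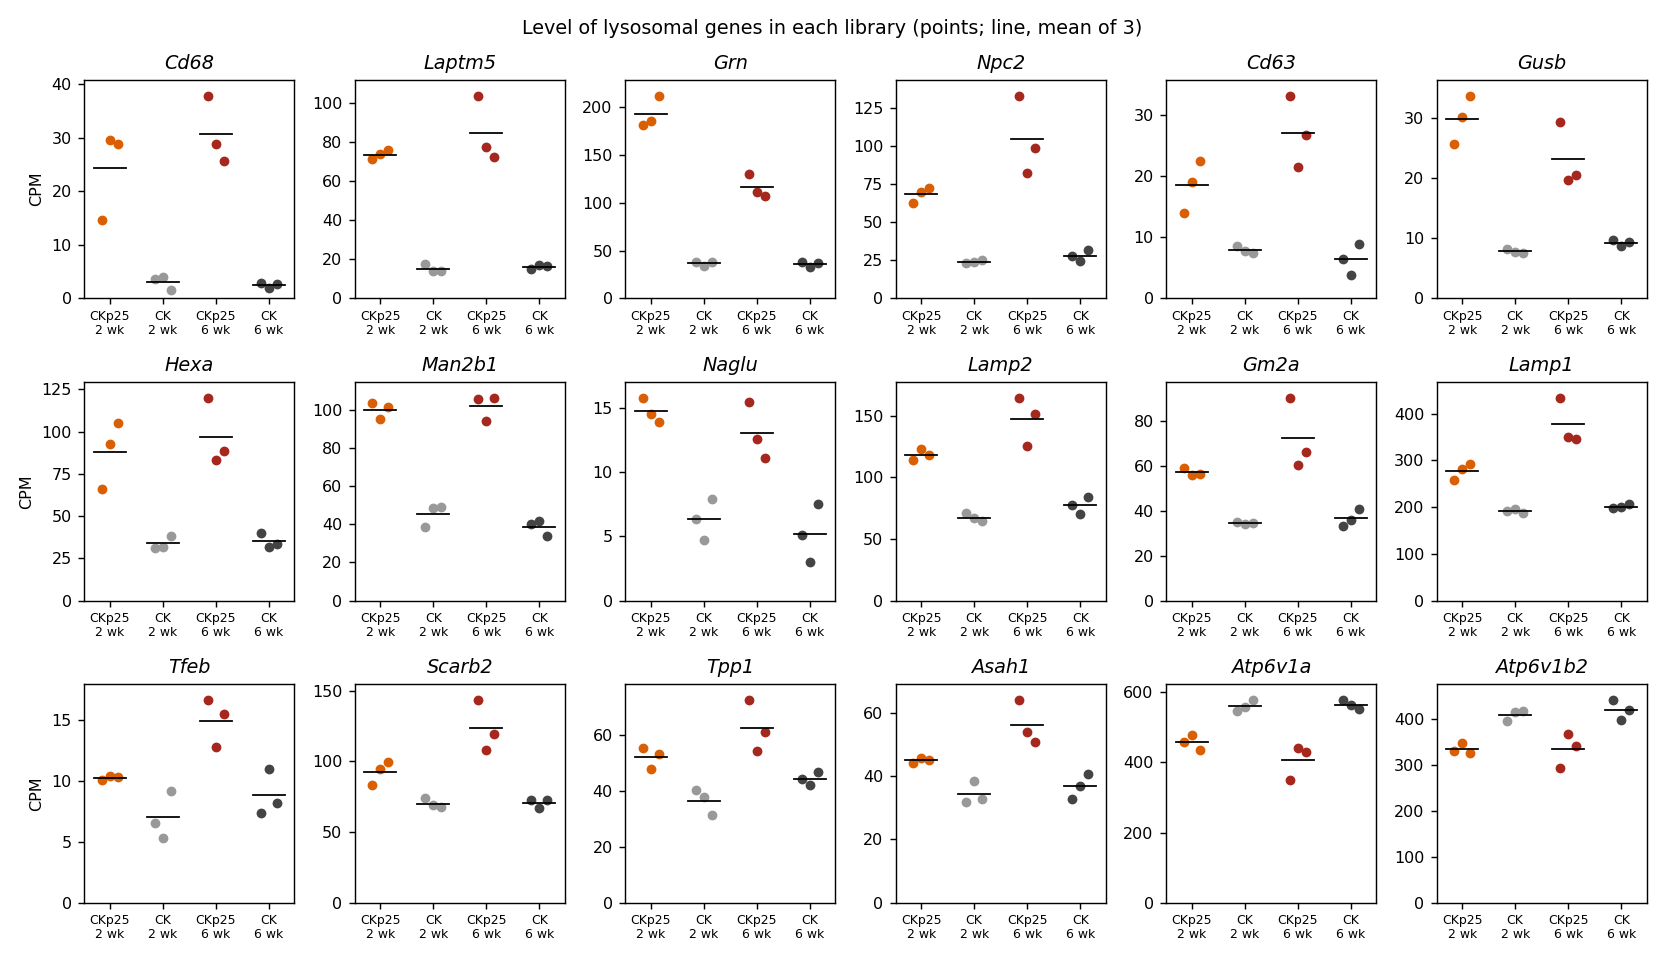
CPM of 18 lysosomal genes in each of 12 libraries (points), with the mean of the 3 libraries of each group (lines); each panel has its own axis from 0. In the first 16 panels every CKp25 library lies above every CK library of its time, and in Atp6v1a and Atp6v1b2 every CKp25 library lies below.

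Of the 8 lipid genes, 3 were called higher at 2 weeks and 6 at 6 weeks, and none lower, with median log2 fold changes of 0.28 and 0.56. Npc2 (ENSMUSG00000021242) encodes a small soluble protein that hands cholesterol to NPC1 for export from the lysosome. It had 62.5, 69.9 and 72.9 CPM in the CKp25 libraries, against 23.1, 24.1 and 25.4 CPM in the CK libraries at 2 weeks. At 6 weeks Npc2 had 133, 82.8 and 98.8 CPM in the CKp25 libraries, against 27.9, 24.9 and 32.0 CPM in the CK libraries. Every 6-week CKp25 library was above every 2-week CKp25 library, and all 6 were above all CK libraries. For Npc2 the log2 fold change was 1.50 ± 0.15 at 2 weeks (edgeR adjusted p = 1.23e-06) and 1.88 ± 0.14 at 6 weeks (edgeR adjusted p = 6.09e-08). Npc1, the membrane transporter that receives this cholesterol, averaged 87.9 ± 6.92 CPM in CKp25 and 77.3 ± 4.81 CPM in CK at 2 weeks and 120.0 ± 5.94 CPM in CKp25 and 83.2 ± 2.22 CPM in CK at 6 weeks. The groups overlapped at 2 weeks and did not at 6 weeks. For Npc1 the log2 fold change at 6 weeks was 0.53 ± 0.076 (edgeR adjusted p = 5.47e-05).

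Gm2a (ENSMUSG00000000594) encodes the activator protein that presents GM2 ganglioside to the enzyme containing the Hexa subunit. Its levels were 59.0, 56.0 and 56.1 CPM in the CKp25 libraries, against 34.7, 34.0 and 34.5 CPM in the CK libraries at 2 weeks. At 6 weeks Gm2a had 90.0, 60.4 and 66.0 CPM in the CKp25 libraries, against 33.0, 35.8 and 40.7 CPM in the CK libraries. The 2-week libraries of each genotype were nearly equal, and CKp25_6wk_3937 lay well above the other 2 of its group. For Gm2a the log2 fold change was 0.73 ± 0.13 at 2 weeks (edgeR adjusted p = 0.000472) and 0.97 ± 0.12 at 6 weeks (edgeR adjusted p = 1.63e-05). Asah1 (ENSMUSG00000031591), the acid ceramidase, differed less. At 2 weeks Asah1 had 44.2, 45.8 and 45.1 CPM in the CKp25 libraries, against 31.9, 38.5 and 32.7 CPM in the CK libraries. At 6 weeks Asah1 had 64.0, 53.9 and 50.7 CPM in the CKp25 libraries, against 32.8, 36.8 and 40.7 CPM in the CK libraries. The groups were separate at both times. For Asah1 the log2 fold change was 0.39 ± 0.11 at 2 weeks (edgeR adjusted p = 0.0169) and 0.61 ± 0.11 at 6 weeks (edgeR adjusted p = 0.000347). The 2-week Asah1 call was lost when CKp25_2wk_4894, CK_2wk_4520 or CK_2wk_4893 was left out, or CKp25_2wk_4518 and CK_2wk_4520 together, with log2 fold changes of 0.34 to 0.40 and edgeR adjusted p up to 0.0928.

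Lipa, the acid lipase of cholesteryl esters and triglycerides, averaged 22.4 ± 2.32 CPM in CKp25 and 17.3 ± 1.80 CPM in CK at 2 weeks and 28.2 ± 4.00 CPM in CKp25 and 18.5 ± 1.24 CPM in CK at 6 weeks. For Lipa the log2 fold change at 6 weeks was 0.60 ± 0.13 (edgeR adjusted p = 0.00186). Psap, the precursor of the saposins that help sphingolipid hydrolases, averaged 1172 ± 21.9 CPM in CKp25 and 1061 ± 11.6 CPM in CK at 2 weeks and 1354 ± 80.7 CPM in CKp25 and 1092 ± 56.0 CPM in CK at 6 weeks. Its CKp25 libraries were all above CK at both times by a small margin. For Psap the log2 fold change at 6 weeks was 0.31 ± 0.071 (edgeR adjusted p = 0.0028). Smpd1 (acid sphingomyelinase) and Galc (galactosylceramidase, active on myelin lipid) were called at neither time. Smpd1 averaged 74.4 ± 2.06 CPM in CKp25 and 84.4 ± 1.85 CPM in CK at 2 weeks, with every CKp25 library below every CK library, and 81.5 ± 1.02 CPM in CKp25 and 79.6 ± 3.12 CPM in CK at 6 weeks, with overlap. Its log2 fold change was -0.18 ± 0.065 at 2 weeks (edgeR adjusted p = 0.0607).

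Grn (ENSMUSG00000034708) encodes progranulin, which is cut into granulins inside lysosomes and is made by microglia and neurons. It had 181, 186 and 211 CPM in the CKp25 libraries, against 37.7, 34.2 and 38.2 CPM in the CK libraries at 2 weeks. At 6 weeks Grn had 130.0, 111 and 107 CPM in the CKp25 libraries, against 38.4, 32.4 and 37.5 CPM in the CK libraries. The 3 CKp25 libraries of 2 weeks were the highest of the 12, those of 6 weeks came next, and the CK libraries of both times lay together. For Grn the log2 fold change was 2.39 ± 0.097 at 2 weeks (edgeR adjusted p = 1.13e-10) and 1.68 ± 0.098 at 6 weeks (edgeR adjusted p = 3.36e-09). Tpp1 (ENSMUSG00000030894), the tripeptidyl peptidase that trims peptides in the lysosome, had 55.2, 47.7 and 53.3 CPM in the CKp25 libraries, against 40.2, 37.6 and 31.5 CPM in the CK libraries at 2 weeks. At 6 weeks Tpp1 had 72.4, 54.3 and 60.9 CPM in the CKp25 libraries, against 44.1, 41.9 and 46.6 CPM in the CK libraries. The groups did not overlap, with gaps smaller than for Grn. For Tpp1 the log2 fold change was 0.51 ± 0.11 at 2 weeks (edgeR adjusted p = 0.00398) and 0.49 ± 0.11 at 6 weeks (edgeR adjusted p = 0.00249). Ppt1, a thioesterase that removes fatty acids from proteins, averaged 92.5 ± 7.32 CPM in CKp25 and 88.3 ± 3.49 CPM in CK at 2 weeks and 106 ± 18.4 CPM in CKp25 and 79.2 ± 13.7 CPM in CK at 6 weeks, and its groups overlapped at both times. For Ppt1 the log2 fold change at 6 weeks was 0.41 ± 0.12 (edgeR adjusted p = 0.0171). That call was lost without CKp25_6wk_3937, CKp25_6wk_4008, CK_6wk_3936 or CK_6wk_3938, with log2 fold changes of 0.29 to 0.38 and edgeR adjusted p up to 0.108.

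Of the 7 membrane proteins, 6 were called higher at both times, and their median log2 fold change was 0.81 at 2 weeks and 0.93 at 6 weeks. Their summed level was 589.7 to 671 CPM in CKp25 and 377 to 402 CPM in CK at 2 weeks and 743 to 942 CPM in CKp25 and 387 to 424 CPM in CK at 6 weeks. Cd68 (ENSMUSG00000018774), a heavily glycosylated protein of late endosomes and lysosomes in phagocytes, differed most between genotypes of the 35 genes at both times. It had 14.7, 29.7 and 28.8 CPM in the CKp25 libraries, against 3.69, 4.09 and 1.63 CPM in the CK libraries at 2 weeks. At 6 weeks Cd68 had 37.8, 28.8 and 25.6 CPM in the CKp25 libraries, against 2.85, 2.02 and 2.62 CPM in the CK libraries. CKp25_2wk_4518 lay below the other CKp25 libraries and above all CK libraries. For Cd68 the log2 fold change was 2.92 ± 0.31 at 2 weeks (edgeR adjusted p = 2.02e-06) and 3.60 ± 0.32 at 6 weeks (edgeR adjusted p = 2.51e-07). Laptm5 (ENSMUSG00000028581), a lysosomal transmembrane protein of blood-lineage cells, had 71.0, 73.6 and 75.7 CPM in the CKp25 libraries, against 17.4, 14.1 and 14.2 CPM in the CK libraries at 2 weeks. At 6 weeks Laptm5 had 103, 77.3 and 72.4 CPM in the CKp25 libraries, against 15.3, 17.0 and 16.4 CPM in the CK libraries. The 2-week CKp25 libraries were close together, and CKp25_6wk_3937 was the highest library at 6 weeks. For Laptm5 the log2 fold change was 2.26 ± 0.13 at 2 weeks (edgeR adjusted p = 3.1e-09) and 2.37 ± 0.13 at 6 weeks (edgeR adjusted p = 1.91e-09).

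Cd63 (ENSMUSG00000025351) encodes a tetraspanin of late endosomes, lysosomes and exosomes. It had 14.0, 19.1 and 22.6 CPM in the CKp25 libraries, against 8.55, 7.77 and 7.52 CPM in the CK libraries at 2 weeks. At 6 weeks Cd63 had 33.2, 21.6 and 26.7 CPM in the CKp25 libraries, against 6.51, 3.84 and 8.90 CPM in the CK libraries. The groups were separate at both times, and CKp25_2wk_4518 and CKp25_6wk_3940 were the lowest CKp25 libraries. For Cd63 the log2 fold change was 1.21 ± 0.24 at 2 weeks (edgeR adjusted p = 0.00142) and 2.05 ± 0.24 at 6 weeks (edgeR adjusted p = 6.14e-06). A processed pseudogene, Cd63-ps, is named in the ID table, and reads aligned to both places are not in the counts.

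Lamp1 (ENSMUSG00000031447) and Lamp2 (ENSMUSG00000016534) encode the most abundant glycoproteins of the lysosomal membrane, and Lamp2 is also needed for taking up proteins by chaperone-mediated autophagy. Lamp1, with the 4 promoter E-boxes shown above, had 257, 280.4 and 292 CPM in the CKp25 libraries, against 192, 195 and 188 CPM in the CK libraries at 2 weeks. At 6 weeks Lamp1 had 433, 350.4 and 347 CPM in the CKp25 libraries, against 198, 199 and 206 CPM in the CK libraries. The CK libraries of both times were nearly equal, the 2-week CKp25 libraries lay above them and the 6-week CKp25 libraries higher still. For Lamp1 the log2 fold change was 0.53 ± 0.085 at 2 weeks (edgeR adjusted p = 0.000236) and 0.91 ± 0.085 at 6 weeks (edgeR adjusted p = 5.76e-07). Lamp2 had 114, 123 and 118 CPM in the CKp25 libraries, against 70.9, 66.7 and 64.6 CPM in the CK libraries at 2 weeks. At 6 weeks Lamp2 had 164, 125 and 151 CPM in the CKp25 libraries, against 77.7, 70.2 and 83.8 CPM in the CK libraries. The order of the groups was that of Lamp1, with CKp25_6wk_3940 just above the 2-week CKp25 libraries. For Lamp2 the log2 fold change was 0.81 ± 0.095 at 2 weeks (edgeR adjusted p = 7.71e-06) and 0.93 ± 0.094 at 6 weeks (edgeR adjusted p = 1.37e-06).

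Scarb2 (ENSMUSG00000029426) encodes LIMP-2, the receptor that carries glucocerebrosidase to the lysosome. At 2 weeks Scarb2 had 83.1, 94.4 and 99.5 CPM in the CKp25 libraries, against 73.8, 68.9 and 67.5 CPM in the CK libraries. At 6 weeks Scarb2 had 143, 108 and 119 CPM in the CKp25 libraries, against 72.8, 66.8 and 73.0 CPM in the CK libraries. CKp25_2wk_4518 was the CKp25 library nearest to CK, and no groups overlapped. For Scarb2 the log2 fold change was 0.40 ± 0.10 at 2 weeks (edgeR adjusted p = 0.00918) and 0.80 ± 0.099 at 6 weeks (edgeR adjusted p = 1.2e-05). Without CKp25_2wk_4894 the 2-week Scarb2 change was 0.34 and missed the threshold (edgeR adjusted p = 0.055). Mcoln1, the calcium channel of the lysosomal membrane and a gene with 2 promoter E-boxes, averaged 35.4 ± 0.353 CPM in CKp25 and 33.9 ± 1.16 CPM in CK at 2 weeks and 30.4 ± 3.56 CPM in CKp25 and 31.1 ± 2.61 CPM in CK at 6 weeks. Its groups overlapped and it was called at neither time, with log2 fold changes of 0.06 ± 0.10 and -0.03 ± 0.10.

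The proton pump genes did not follow the hydrolases. None of the 4 tested was called higher, and Atp6v1a and Atp6v1b2, the subunits that form the ATP-hydrolysing head of V1, were called lower at both times. Atp6v1a (ENSMUSG00000052459), the catalytic subunit, had 459.6, 478 and 434 CPM in the CKp25 libraries, against 546, 559 and 578 CPM in the CK libraries at 2 weeks. At 6 weeks Atp6v1a had 349.8, 441 and 431 CPM in the CKp25 libraries, against 578, 564 and 552 CPM in the CK libraries. Every CKp25 library was below every CK library, and CKp25_6wk_3937 was the lowest of all. For Atp6v1a the log2 fold change was -0.29 ± 0.085 at 2 weeks (edgeR adjusted p = 0.0211) and -0.47 ± 0.085 at 6 weeks (edgeR adjusted p = 0.00043). The 2-week Atp6v1a call was lost without CKp25_2wk_4894, CK_2wk_4891 or CK_2wk_4893, with log2 fold changes of -0.30 to -0.25 and edgeR adjusted p up to 0.108.

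Atp6v1b2 (ENSMUSG00000006273), the partner subunit in that head and the B form used in brain, had 329.8, 348 and 328 CPM in the CKp25 libraries, against 395, 416 and 417 CPM in the CK libraries at 2 weeks. At 6 weeks Atp6v1b2 had 293, 369 and 342 CPM in the CKp25 libraries, against 442, 398 and 419.8 CPM in the CK libraries. The groups were again separate, with CKp25_6wk_3937 the lowest library. For Atp6v1b2 the log2 fold change was -0.29 ± 0.083 at 2 weeks (edgeR adjusted p = 0.0201) and -0.33 ± 0.083 at 6 weeks (edgeR adjusted p = 0.00593). The 2-week call was lost without CKp25_2wk_4894, CK_2wk_4891 or CK_2wk_4893, or without CKp25_2wk_4518 and CK_2wk_4520 together, with log2 fold changes of -0.30 to -0.27 and edgeR adjusted p up to 0.0907. Leaving out CKp25_2wk_4894, CK_2wk_4891 or CK_2wk_4893 thus left 0 members called lower at 2 weeks.

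Atp6v0c, which forms the proton-carrying ring, averaged 151 ± 32.3 CPM in CKp25 and 175 ± 31.0 CPM in CK at 2 weeks, with overlap, and 131 ± 20.7 CPM in CKp25 and 161 ± 13.4 CPM in CK at 6 weeks, with every CKp25 library lower. Its log2 fold change at 6 weeks was -0.30 ± 0.15 (edgeR adjusted p = 0.141). It was called lower at 6 weeks with no filter on low counts (-0.31, edgeR adjusted p = 0.00267), with the 6-week libraries alone (-0.30, edgeR adjusted p = 0.0477), without CKp25_2wk_4518 and CK_2wk_4520 together (-0.31, edgeR adjusted p = 0.0253) and with runs of library numbers as a block (-0.30, edgeR adjusted p = 0.0228). With the share of reads with several alignments as a covariate the value was -0.72 (edgeR adjusted p = 3.86e-05). A pseudogene, Atp6v0c-ps2, is named in the ID table, and reads aligned to both places are not in the counts. The part of such reads, whose share was higher in every 6-week CKp25 library than in any 6-week CK library, was not tested further. Atp6ap1, an accessory protein of the pump, averaged 170.2 ± 14.0 CPM in CKp25 and 188 ± 17.7 CPM in CK at 2 weeks and 181 ± 8.39 CPM in CKp25 and 179.7 ± 10.6 CPM in CK at 6 weeks, with overlap at both. Atp6v0d2, a V0 subunit form found in osteoclasts and macrophages, had 7 reads over all 12 libraries. Of these, 1 was in CKp25_2wk_4890, 2 in CKp25_6wk_3937 and 4 in CKp25_6wk_4008, and the 6 CK libraries had 0. A count of that size was too low to test.

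The other proton pump subunits held calls in both directions. Of 15 tested, 2 were called higher and 6 lower at 2 weeks, against 11.6% and 7.99% of all genes, and 3 higher and 7 lower at 6 weeks, against 18.1% and 15.2%. Tcirg1, the a3 subunit of osteoclast and immune cell lysosomes, averaged 33.8 ± 1.58 CPM in CKp25 and 12.2 ± 3.30 CPM in CK at 2 weeks and 38.1 ± 8.57 CPM in CKp25 and 13.7 ± 1.31 CPM in CK at 6 weeks, with log2 fold changes of 1.45 ± 0.18 and 1.48 ± 0.18 (edgeR adjusted p = 1.25e-05 and 7.74e-06). Atp6v0a1, the a1 subunit that predominates in neurons, averaged 316 ± 18.0 CPM in CKp25 and 377 ± 16.7 CPM in CK at 2 weeks and 284 ± 22.8 CPM in CKp25 and 369.5 ± 22.4 CPM in CK at 6 weeks, with log2 fold changes of -0.25 ± 0.079 and -0.38 ± 0.080 (edgeR adjusted p = 0.0336 and 0.00144). Atp6v1g2, a brain form of the G subunit, had log2 fold changes of -0.45 ± 0.079 and -0.51 ± 0.081 (edgeR adjusted p = 0.000511 and 0.00012). Its paralog Atp6v1g1, which is found in most tissues, had log2 fold changes of 0.03 ± 0.11 and 0.39 ± 0.11 (edgeR adjusted p = 0.879 and 0.00915). Atp6v0a2 was the other subunit called higher at 2 weeks, and every CKp25 library was above every CK library at both times. Its log2 fold changes were 0.39 ± 0.072 and 0.37 ± 0.073 (edgeR adjusted p = 0.000944 and 0.0008). Neuron marker sums were lower and microglia marker sums higher in the same CKp25 libraries, as given above. Their part in the calls of these subunits was not tested.

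**Figure D4:**
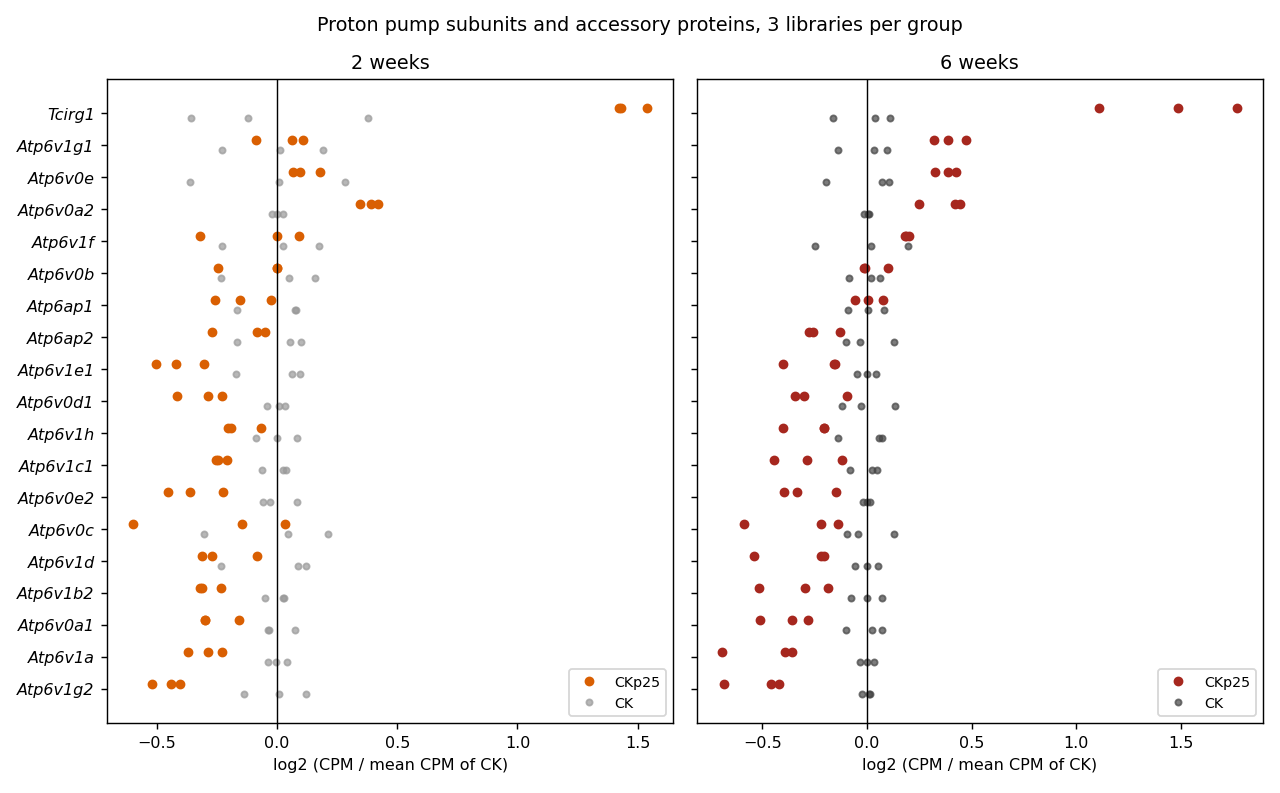
Log2 ratio of CPM in each library to the mean of the 3 CK libraries of the same time, for the tested proton pump subunits and accessory proteins at 2 and 6 weeks. CKp25 libraries (upper points of each gene) lie above CK for Tcirg1 and Atp6v0a2 at both times. They lie below it for genes that include Atp6v1a, Atp6v1b2, Atp6v0a1 and Atp6v1g2.

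Tfeb (ENSMUSG00000023990), the transcription factor gene, was low in all libraries. It had 10.1, 10.4 and 10.3 CPM in the CKp25 libraries, against 6.54, 5.32 and 9.14 CPM in the CK libraries at 2 weeks. At 6 weeks Tfeb had 16.6, 12.7 and 15.5 CPM in the CKp25 libraries, against 7.32, 10.9 and 8.21 CPM in the CK libraries. CKp25 libraries were above CK libraries at both times, with CK_2wk_4893 and CK_6wk_3938 close to them. For Tfeb the log2 fold change was 0.55 ± 0.20 at 2 weeks (edgeR adjusted p = 0.0711) and 0.76 ± 0.19 at 6 weeks (edgeR adjusted p = 0.00606). TFEB is controlled largely by its phosphorylation and its place in the cell, which RNA levels do not show. Another list held relatives of Tfeb and genes of mTORC1 control at the lysosome and of the phosphatase calcineurin, and 19 were tested. Of these, 2 were called higher and 3 lower at 2 weeks, against 11.6% and 7.99% of all genes. At 6 weeks 5 were called higher and 7 lower, against 18.1% and 15.2%. The calcineurin genes were all among those called lower at 6 weeks, and Ppp3ca and Ppp3r1 also at 2 weeks. Mitf, a relative of Tfeb, had log2 fold changes of 0.56 ± 0.17 and 0.72 ± 0.17 (edgeR adjusted p = 0.0314 and 0.00302). Ppp3ca, a catalytic subunit of calcineurin, the phosphatase that activates TFEB, had log2 fold changes of -0.40 ± 0.083 and -0.81 ± 0.084 (edgeR adjusted p = 0.00265 and 1.74e-06).

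Time was then compared within each genotype. Between 6 and 2 weeks in CKp25, 5 of the 35 genes were called higher and 1 lower, against 6.12% and 5.53% of all genes tested. Npc2 averaged 105 ± 25.8 CPM at 6 weeks and 68.4 ± 5.33 CPM at 2 weeks in CKp25. Lamp1 averaged 377 ± 48.9 CPM at 6 weeks and 276 ± 17.4 CPM at 2 weeks in CKp25. In both, every 6-week CKp25 library exceeded every 2-week one, which held for 14 of the 35 genes, against 14.4% of all genes. The reverse held for 2 of the 35, against 14.4% of all genes. The log2 fold changes, 6 over 2 weeks, were 0.61 ± 0.13 for Npc2 and 0.45 ± 0.084 for Lamp1, 0.45 ± 0.075 for Npc1, 0.42 ± 0.096 for Scarb2 and 0.31 ± 0.090 for Lamp2, with edgeR adjusted p of 0.00583, 0.00249, 0.00108, 0.00907 and 0.0327 in that order. The Lamp2 call was lost without CKp25_2wk_4518, CKp25_2wk_4890, CKp25_2wk_4894, CKp25_6wk_3937 or CKp25_6wk_4008. It was also lost without CKp25_2wk_4518 and CK_2wk_4520 together, and in a fit of the 6 CKp25 libraries alone. The Lamp2 values in these fits were 0.23 to 0.34, with edgeR adjusted p up to 0.172. The Scarb2 call was lost without CKp25_2wk_4518 or CKp25_6wk_3937, and without CKp25_2wk_4518 and CK_2wk_4520 together. The Scarb2 values in these fits were 0.30 to 0.33, with edgeR adjusted p up to 0.0549. Without CKp25_6wk_3940 the count called higher was 10, with Cd63, Gm2a, Lipa, Psap and Tfeb added, and without CKp25_2wk_4518 or CKp25_6wk_3937 it was 3. Single additions came without CKp25_6wk_4008 or CK_6wk_4009 (Asah1) and CKp25_2wk_4890 (Sgsh), and Gusb was called lower without CKp25_6wk_3937 at -0.57.

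Grn was the gene called lower. It averaged 116 ± 12.2 CPM at 6 weeks and 193 ± 16.3 CPM at 2 weeks in CKp25, and every 6-week CKp25 library was below every 2-week one. Its log2 fold change within CKp25 was -0.73 ± 0.086 (edgeR adjusted p = 7.81e-05), and over all alternatives it lay between -0.82 and -0.68 with edgeR, DESeq2 or limma adjusted p of at most 0.0012. Within CK, 0 of the 35 genes were called between 6 and 2 weeks by edgeR, DESeq2 or limma-voom, as were 0% of all genes, and 3 of the 35 had an unadjusted edgeR p under 0.05. Every 6-week CK library was above every 2-week CK library in 3 of the 35 genes and below in 1, against 4.92% and 4.39% of all genes.

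**Figure D5:**
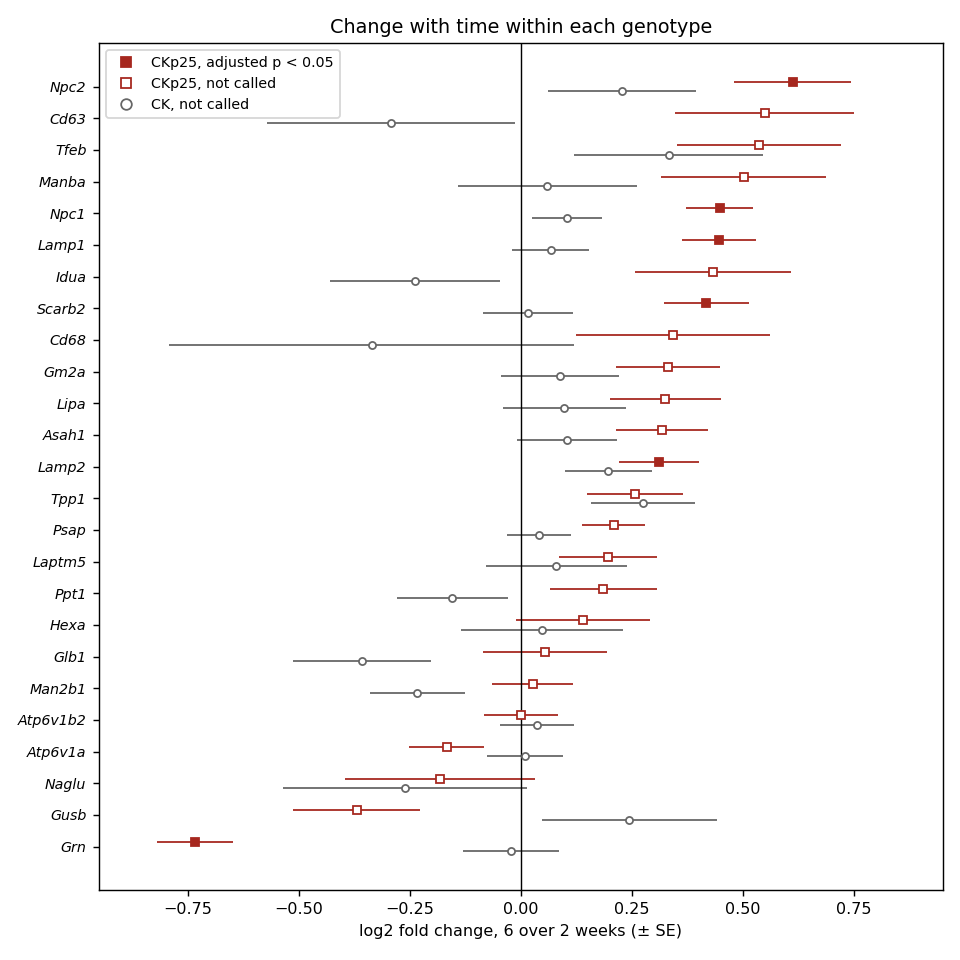
Log2 fold change, 6 over 2 weeks, with standard errors, within CKp25 (squares) and within CK (circles) for the 25 lysosomal genes called at either time; filled symbols passed an adjusted p of 0.05. Grn lies at -0.73 in CKp25 and near 0 in CK, and Npc2, Npc1, Lamp1, Scarb2 and Lamp2 lie above 0 in CKp25.

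The genotype effect was then tested for a difference between the times. Grn was the 1 gene of 35 called, against 0.553% of all genes tested. Its genotype effect was 1.68 at 6 weeks and 2.39 at 2 weeks on the log2 scale, a difference of -0.71 ± 0.14 (edgeR adjusted p = 0.0296). The call was lost when CKp25_2wk_4894, CK_2wk_4891, CK_2wk_4893, CKp25_6wk_4008, CK_6wk_3936 or CK_6wk_4009 was left out, with differences of -0.74 to -0.66 and edgeR adjusted p up to 0.089. For the other 34 genes the difference missed the threshold. Among the 8 genes called at 6 weeks alone, Idua had a difference of 0.67 ± 0.26 (edgeR adjusted p = 0.247) and Npc1 had 0.34 ± 0.11 (edgeR adjusted p = 0.149). With the share of reads with several alignments as a covariate Npc1 passed at 0.47 (edgeR adjusted p = 0.0419), as did Atp6v0c at -0.56 (edgeR adjusted p = 0.0307), and with no filter on low counts Cd63 passed at 0.84 (edgeR adjusted p = 0.0387).

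Single libraries weighed on the levels. CKp25_6wk_3937 was the highest of its group for 22 of the 35 genes (62.9%), against 35.1% of all genes tested. It was also the highest for 17 of the 23 genes called higher at 6 weeks. Those 23 were selected for high levels in that group, and the share over all genes called higher was not taken. CKp25_2wk_4518 was the lowest of its group for 21 of the 35 (60%), against 36.8% of all genes. Control libraries were uneven as well. CK_6wk_3938 was the lowest of its group for 20 of the 35 (57.1%), against 33.3% of all genes. CK_6wk_4009 was the highest of that group for 17 (48.6%), against 33%. CKp25_6wk_3937 also had the highest microglia and astrocyte marker sums of its group and the lowest neuron marker sum. CKp25_2wk_4518 had the lowest microglia marker sum of its group, but the highest astrocyte and neuron marker sums. Without CKp25_6wk_3937, 21 genes were called higher and 2 lower at 6 weeks, and without CKp25_2wk_4518, 15 higher and 2 lower at 2 weeks. Without CK_6wk_3938, 21 were called higher and 2 lower at 6 weeks.

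The rest of the lysosomal machinery was read from lists that hold none of the 36 genes. Each count below stands against 11.6% of all genes tested called higher and 7.99% lower at 2 weeks, and 18.1% higher and 15.2% lower at 6 weeks. A list of other lysosomal hydrolases and related enzymes, not all of them hydrolases, had 23 tested genes. Of these, 6 were called higher and 1 lower at 2 weeks, and 15 higher and 2 lower at 6 weeks. Dnase2a, the acid nuclease that degrades DNA of engulfed cells, had log2 fold changes of 1.52 ± 0.33 and 2.49 ± 0.34 (edgeR adjusted p = 0.00354 and 3.56e-05). Hgsnat, an acetyltransferase of heparan sulfate breakdown and no hydrolase, was the 1 gene of this list called lower at 2 weeks. It was lower at -0.24 ± 0.083 and -0.25 ± 0.084 (edgeR adjusted p = 0.0492 and 0.0291). Of 13 cathepsins and legumain tested, 10 were called higher at 2 weeks and 12 at 6 weeks, and none lower. Of 26 other lysosomal membrane proteins, 5 were called higher at 2 weeks and 8 at 6 weeks, and none lower. The other 21 and 18 were not called, and the median log2 fold change of the 26 was -0.009 at 2 weeks and 0.12 at 6 weeks. Cd9, a tetraspanin like Cd63, had log2 fold changes of 2.09 ± 0.16 and 2.31 ± 0.16 (edgeR adjusted p = 7.19e-08 and 2.06e-08).

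Genes that deliver enzymes and cargo to the lysosome were read against the same shares. Of 16 genes that sort hydrolases to the lysosome, 0 were called higher and 3 lower at 2 weeks, and 2 higher and 5 lower at 6 weeks. Sort1, the sorting receptor sortilin, which also takes up progranulin, had log2 fold changes of -0.31 ± 0.084 at 2 weeks and -0.35 ± 0.084 at 6 weeks (edgeR adjusted p = 0.0152 and 0.00368). M6pr, a mannose 6-phosphate receptor, had 0.13 ± 0.081 at 2 weeks, which was not called, and 0.32 ± 0.081 at 6 weeks (edgeR adjusted p = 0.00559). Of 18 autophagy genes, 0 were called higher and 1 lower at 2 weeks, and 2 higher and 3 lower at 6 weeks, which is near or under the shares over all genes. Gabarap and Gabarapl1, which encode related proteins of the autophagosome membrane, moved in opposite directions at 6 weeks, with log2 fold changes of 0.57 ± 0.10 and -0.32 ± 0.093 (edgeR adjusted p = 0.00049 and 0.0152).

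The sources do not state whether reads were counted by strand, and 14 of the 36 genes overlap another gene in a GRCm38 annotation, which may share reads with them. Among the genes given per library these are Hexa, Asah1, Lamp2, Scarb2, Laptm5 and Atp6v1b2.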

How the data were processed

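The authors deposited unnormalized read counts for each Ensembl gene, in 1 table of 12 libraries. The submitters' processing notes name HTSeq 0.6.1, Bowtie, Picard and MACS2, and the builds mm9 and NCBIM37. Per the labels' protocols, ribosomal RNA was removed and stranded total RNA libraries were made. Whether HTSeq counted by strand is not given in the sources. Entries that name no gene were left out of library sizes and tests: 38.1 to 46.9% of a library's reads lay outside genes, 6.81 to 14.3% had several alignments, 6.13 to 11.1% were unaligned and 0.137 to 0.165% ambiguous. Symbols came from an ID table that named 32919 of 37991 genes (86.6%).

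The counts were fitted with edgeR 4.0.16 (R 4.3.3): filterByExpr, TMM scaling, 4 group means over 12 libraries and quasi-likelihood tests, with Benjamini-Hochberg adjustment over 14457 genes. The scripts were tested on simulated data. Within groups no library was a copy of another: pairs had chi-square values of 1.47 to 9.07 per gene. The lowest were 1.47 for CK_2wk_4891 with CK_2wk_4893 and 2.25 for CKp25_2wk_4890 with CKp25_2wk_4894. The other pairs within the 2-week groups had 5.68 to 9.07. Pairs across groups were not compared. The members, gene lists and tests were chosen with earlier results of these data known. Values per library are given for the 16 genes with the largest mean absolute log2 fold change among those called at either time and for each gene called lower. Of each other list, the 2 called genes with the largest change in each direction at 6 weeks may be named. Atp6v0a2 was named in addition, since it was called higher at both times. Alternatives were DESeq2 size factors, no filter on low counts, DESeq2 1.42.0, limma-voom (limma 3.58.1), fewer libraries, the choroid plexus marker level or the share of reads with several alignments as a covariate, and, added after seeing the data, a block for runs of library numbers (CKp25_2wk_4518 and CK_2wk_4520 against the other 2-week libraries, and CKp25_6wk_4008 and CK_6wk_4009 against the other 6-week ones). Promoters were scanned on both strands. The peak lists of the ChIP samples were not used here, since they are on mm9 and no annotation of that build was used.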

Additional observations from a re-analysis of the deposited data

Results flagged for a closer look

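Grn was the 1 lysosomal gene whose genotype effect differed between the times in a test of that difference. The effect was 1.68 at 6 weeks and 2.39 at 2 weeks on the log2 scale, a difference of -0.711 (edgeR adjusted p = 0.0296). Over all alternatives the difference lay between -0.80 and -0.66, with adjusted p from 2.72e-05 to 0.089.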

How the results depend on the processing

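Of the genes called with all 12 libraries, 13 of 17 at 2 weeks, 22 of 25 at 6 weeks, 0 of 1 for the difference between times and 4 of 6 between 6 and 2 weeks in CKp25 were called under every alternative. No log2 fold change of a called gene changed sign. At 2 weeks the count called lower was 1 without CKp25_2wk_4518 and CK_2wk_4520 together and 0 to 2 when 1 library was left out. For the difference between times, 1 gene was called higher with no filter on low counts and 1 with the share of reads with several alignments as a covariate, where 2 were called lower. Leaving out 1 library gave 0 to 1 called lower. Between 6 and 2 weeks in CKp25, the count called higher was 10 with no filter, 8 with that covariate, 8 with the block, 3 without the pair of libraries and 3 to 10 when 1 library was left out. The count called lower was 2 with that covariate, 2 without the pair and 1 to 2 when 1 library was left out. The cause was not tested. Among genes with 1 listed start the E-box was in 8 of 29 member promoters (27.6%) and in 7.12% of all such promoters, a restriction chosen after seeing the data, as were the GTCACGTG and GAGGAAG motifs.

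No paired analysis was possible because no library number occurs in more than 1 group. The numbers do fall in runs that hold both genotypes, and with these runs as a block, chosen after seeing the data, every call with all 12 libraries kept its side of the threshold. Lipa at 2 weeks, Atp6v0c (lower) at 6 weeks and Manba, Asah1 and Cd63 between 6 and 2 weeks in CKp25 were called in addition. Depth limits the low genes, and Atp6v0d2 was too sparse to test. Naglu, Gusb, Sgsh, Cd63 and Cd68 had under 10 CPM in every CK library, and Tfeb in every CK library except CK_6wk_3938. Time after induction cannot be told apart from a batch common to all libraries of that time.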
